A study of Bos taurus with 48 samples.

Results

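The miR-2284 and miR-2285 family was examined in 48 bovine small RNA libraries. Members were taken by name, as every row of the deposited table whose identifier begins with bta-miR-2284 or bta-miR-2285. There were 52 such rows of 524, and they reduced to 49 mature names of 501 once gene copies of one mature miRNA, which share reads, were represented by the copy with the highest mean. Of these names, 13 belonged to miR-2284 and 36 to miR-2285. All values below are normalised read counts, that is, reads divided by 1 size factor per library.

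Animal microRNAs are short RNAs cut from hairpin precursors. They guide Argonaute proteins to messenger RNAs, mostly through pairing of the seed at the 5′ end of the microRNA. The miR-2284 and miR-2285 group is a large family of related genes annotated in cattle and other ruminants, and for most of its members no function is established. Copies at many loci can give mature sequences that are identical or nearly so, so a read may belong to several of them. In the RefSeq annotation of the cattle assembly ARS-UCD2.0, 191 genes carried a MIR2284 or MIR2285 name, which was 18.5% of the 1032 annotated miRNA genes, and 125 of the 191 lay within the bounds of a protein-coding gene on either strand. Names of 45 of the 49 members matched an annotated gene, 34 of them a single gene and 11 a group of 2 or more. The sources name no assembly for the deposited values, so this annotation served for names and neighbouring genes only.

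The samples came from cows and comprised mammary parenchyma (n = 15), mammary fat pad (n = 16) and liver (n = 17). Within each tissue 6 samples carried the label ad libitum and 6 the label restricted, which stand for milk replacer given freely or in a limited amount, and 3 parenchyma, 4 fat pad and 5 liver samples were labelled control. The sources used here give neither the feed of the controls nor the age and breed of the animals, and nothing in the labels says that samples of a group came from separate animals, so p-values measure the spread between these samples. The ad libitum and restricted samples together are called the milk replacer samples.

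Marker miRNAs matched the tissue labels except in the control parenchyma. The summed level of 4 hepatocyte miRNAs was at least 884709 in each liver sample and at most 11903 in any other sample. The summed level of 10 epithelial miRNAs was 6539 to 22744 in liver, so this list does not mark parenchyma alone. It was 61371 to 110903 in the 12 milk replacer samples of parenchyma, 17.4 to 436 in the fat pad, and 92.5 to 421 in the 3 control samples of parenchyma. Those 3 libraries therefore lacked the epithelial signal of the other parenchyma samples, and 2 of the 10 epithelial miRNAs were at 0 in all 3, as were 4 of the 10 in every fat pad sample. Their sum of 5 adipocyte-linked miRNAs was 104536 to 229296, against 21923 to 45044 in the milk replacer parenchyma, 113966 to 238526 in the fat pad and 5238 to 18958 in liver. The sum of 7 immune cell miRNAs was 100531 in control parenchyma replicate 18, above the highest value of any other library, 42087. The sum of 3 erythroid miRNAs was 590 to 3727 in parenchyma, 2138 to 4386 in fat pad and 2095 to 10059 in liver. Tissue comparisons were accordingly made over the 36 milk replacer samples, and tests that use the control parenchyma samples are given as such. Ranges and counts over all parenchyma samples or all 48 libraries include them. In bulk tissue, fewer cells of a type and less RNA per cell cannot be told apart.

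The family made up a small part of the miRNA signal, 0.0164% to 0.121% of the summed values of a library with a median of 0.0625%. Both ends were control parenchyma libraries, replicates 2 and 18. A single member, miR-2284x, held most of the family sum. It took 65.2% to 84.0% of that sum in parenchyma, or 65.2% to 79.9% in the milk replacer samples alone. Its part was 82.1% to 89.9% in fat pad and 69.1% to 82.8% in liver. The remaining members were low. Over the 48 samples 11 members had a mean of at least 10 and 21 had a mean under 1, and 63.0% of all member values were listed at 0, against 31.8% for the other 452 miRNAs. A value listed at 0 stands for at most 5 reads, because the lowest value above 0 in every library corresponded to 6 reads.

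Depth differed between the tissues. Reads are here the sum over all rows of the deposited table. That sum counts gene copies that share reads more than once and leaves out miRNAs listed at 0. It was 6193678 to 11291532 in parenchyma, 2123962 to 9522666 in fat pad and 826776 to 5146724 in liver. The lowest value that a library could show, its floor, was accordingly 1.58 to 3.47 in parenchyma, 2.99 to 14.0 in fat pad and 5.68 to 37.2 in liver. With a member counted as detected in a tissue when it was above 0 in at least 50% of the samples, 24 of 49 members were detected in parenchyma, 15 in fat pad and 13 in liver. Without the 3 control samples the count in parenchyma was 27. Among the 452 other miRNAs, 77.9%, 65.7% and 60.6% were detected. A comparison list of 60 other miRNAs with bovine-type names, from the same blocks of numbers, gave 24, 11 and 10. All 3 lists thus had their highest count in the most deeply sequenced tissue.

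The order of the tissues turned once each library was held to the same floor on the authors' scale. At or above the common floor, the value of 6 reads in the shallowest library (37.2), 3 members were detected in parenchyma, 5 in fat pad and 6 in liver. For the other miRNAs the counts were 260, 233 and 239. The comparison list of 60 bovine-type names gave 6, 7 and 8, the same order as the family, so this order was not particular to it. The number of members above 0 in a single library was 15 to 33 in parenchyma, 6 to 24 in fat pad and 5 to 23 in liver. In liver the library with the fewest reads (826776) showed 5 members and the one with the most (5146724) showed 23. Among libraries of 6000000 to 10000000 reads, the 14 of parenchyma showed 15 to 31 members with a median of 24.5, and the 6 of fat pad showed 17 to 24 with a median of 20. Among libraries of 2000000 to 5000000 reads, the 11 of liver showed 8 to 23 with a median of 16, and the 7 of fat pad showed 6 to 16 with a median of 13. The ranges overlapped in both pairs. No liver library was as deep as the shallowest parenchyma library, so these 2 tissues could not be set side by side at one depth.

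**Figure D1:**
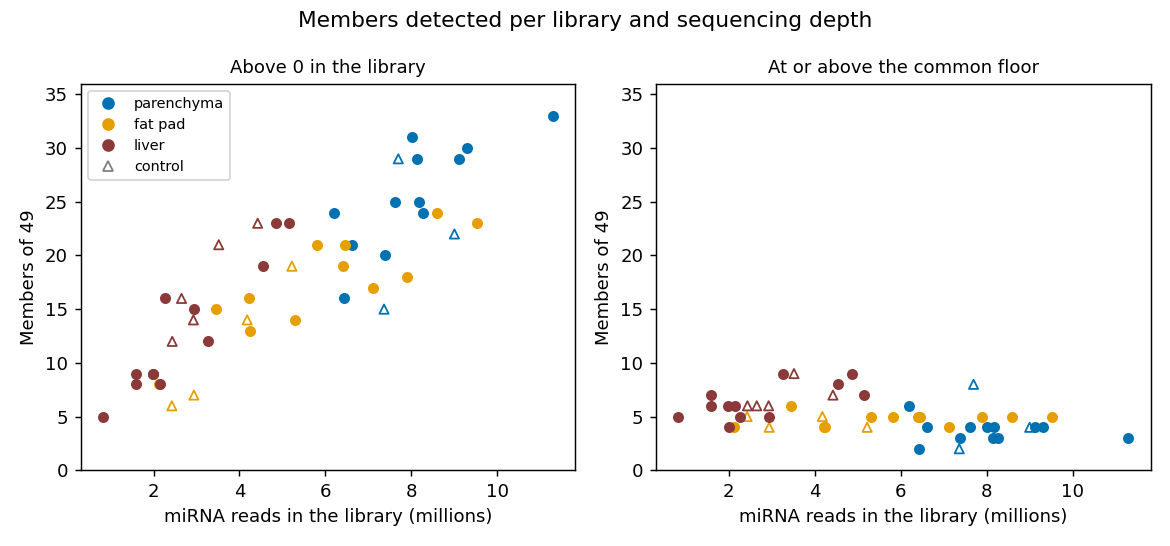
Number of the 49 members above 0 (left) and at or above the common floor of 37.2 (right) in each of the 48 libraries, against the reads of the library in units of 1000000; circles are ad libitum and restricted samples, open triangles controls. On the left deeper libraries of a tissue tend to show more members, from 5 members in the shallowest liver library to 33 in the deepest parenchyma library, and on the right all libraries show between 2 and 9.

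A core of 10 members was detected in all 3 tissues, namely miR-2284ab, miR-2284k, miR-2284w, miR-2284x, miR-2284y, miR-2284z, miR-2285av, miR-2285bc, miR-2285k and miR-2285t. Of these, miR-2284x, miR-2284y and miR-2285av were above 0 in each of the 48 libraries. At the other end, 23 members were above 0 in no more than 10 libraries and 9 of those in 1 library. In parenchyma samples only, 12 names were seen, in fat pad samples only 4 and in liver samples only 0. Among the 452 other miRNAs these counts were 56, 5 and 8. None of the 12 names was above 7.10 in any library. The floor was 5.68 to 37.2 in liver (median 11.2) and 2.99 to 14.0 in fat pad. Most liver libraries could thus not have shown values of that size, so these counts do not show absence from liver.

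**Figure D2:**
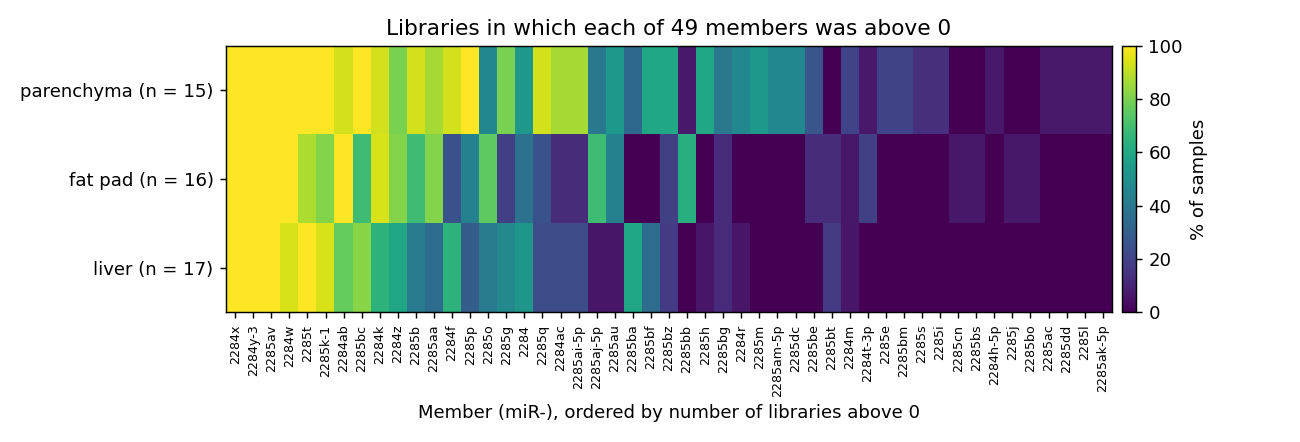
Percentage of the samples of each tissue (rows) in which each of the 49 members (columns, ordered by the number of libraries above 0) was above 0, from dark (0%) to yellow (100%). The first 3 columns are at 100% in every tissue, and 12 columns, with no value above 7.10, are above 0% in parenchyma only, the most deeply sequenced tissue.

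Several names could not be separated from each other. The values of miR-2284ac and miR-2285ai-5p were the same in every library (19 libraries above 0), as were those of miR-2285am-5p and miR-2285dc (7 libraries above 0). The copy miR-2284y-2 equalled miR-2285av in 46 of 48 libraries, with a largest difference of 6 reads. Such pairs are 1 measurement under 2 names, but the counts of members in this report take each name separately. Both miR-2284ac and miR-2285ai-5p are among the 24 detected in parenchyma, and miR-2285am-5p and miR-2285dc are among the 12 names seen in parenchyma only. Likewise miR-2285av and miR-2284y-3, a copy of the same mature name as miR-2284y-2, count as 2 members in every comparison. The miR-2284y copy used here, miR-2284y-3, had a mean of 114 over the 48 samples, against 68.2 for miR-2284y-4 and 59.4 for miR-2284y-2. For miR-2285k the copy used, miR-2285k-1, had a mean of 33.2 and the row without a number 23.99.

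The member with the highest level was miR-2284x, whose single RefSeq gene lies within TIAM1, a gene for a guanine nucleotide exchange factor of the GTPase Rac. Its mean over 48 samples was 1922, and the mean sum of all other members was 513. In the milk replacer samples it was 775 to 1868 in parenchyma (median 1210), 1856 to 3174 in fat pad (median 2288) and 703 to 3178 in liver (median 1579). The highest parenchyma sample lay just above the lowest fat pad sample, whereas the liver samples spanned both tissues.

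Next came miR-2284y-3 at a mean of 114, miR-2285t at 90.7, miR-2285av at 59.5, miR-2284w at 56.1, miR-2285k-1 at 33.2, miR-2284ab at 32.7, miR-2284f at 16.9, miR-2285bc at 16.3 and miR-2284k at 12.8. The proportion of other members to miR-2284x differed in its spread. In all 48 libraries miR-2284y-3 was 4.38% to 8.66% of miR-2284x, a 1.98-fold range, although miR-2284x itself varied 7.12-fold. For miR-2285av the proportion was 1.83% to 5.42%, a 2.97-fold range, against an 8.44-fold range of its level, both ends of which were control parenchyma samples. For miR-2284w it was 1.15% to 5.48% in parenchyma, a 4.76-fold range, 1.83% to 4.54% in fat pad and 0% to 5.55% in liver. By contrast, miR-2285t was 0.235% to 29.4% of miR-2284x in parenchyma, where the lowest was a control library, 0% to 1.71% in fat pad and 2.62% to 12.1% in liver. These proportions share the library and its size factor, which cancel in them, and are given as a description.

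**Figure D3:**
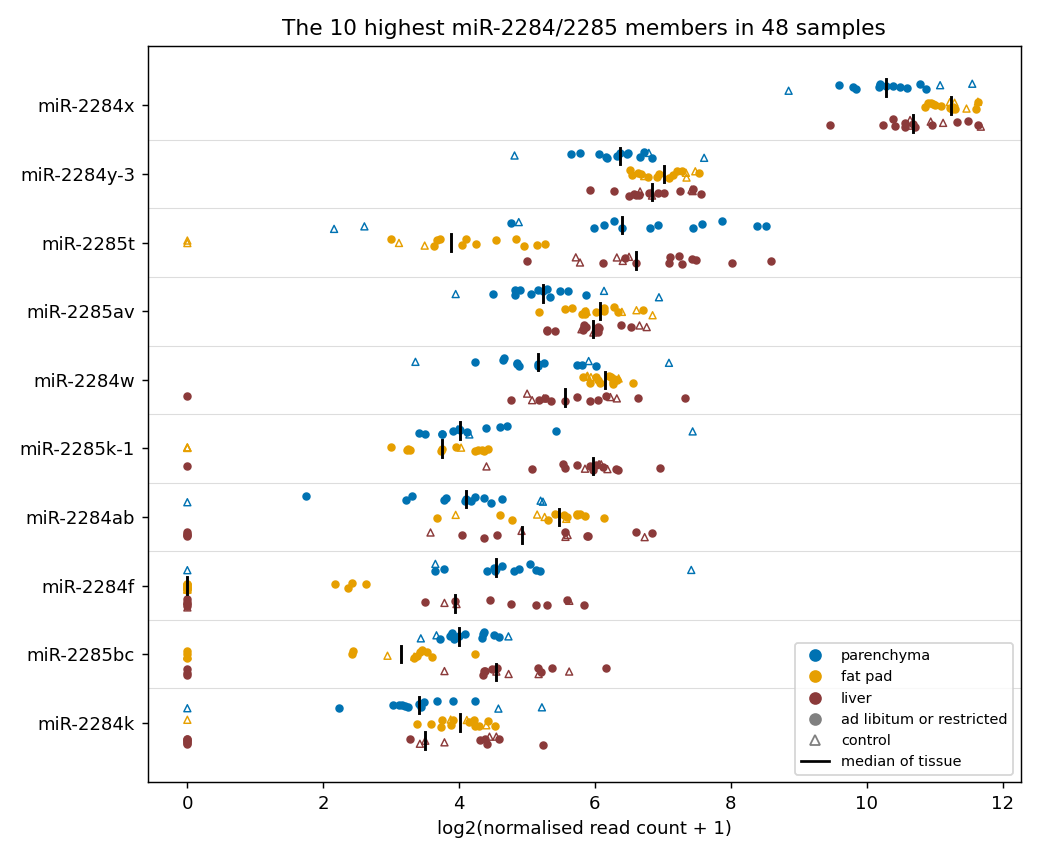
Levels of the 10 members with the highest mean, as log2(normalised read count + 1), in each of the 48 samples; filled circles are ad libitum and restricted samples, open triangles controls, and the black bar is the median of the tissue. Points at 0 are values listed at 0. miR-2285t and miR-2284f lie lowest in fat pad, whereas miR-2284x, miR-2284y-3, miR-2285av and miR-2284w lie lowest in parenchyma as the authors scaled the values.

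The first comparison asked how the tissues differ. Of the 49 members, 10 had a mean of at least 10 in the 36 milk replacer samples and were tested, with limma on log2(value + 1), and 39 were not. Changes are log2 differences on that scale with their standard error. The added 1 lessens the change of low values above 0, whereas a 0, which may stand for up to 5 reads, enters at its lowest possible level and can enlarge a change. Adjusted p-values (Benjamini-Hochberg) are over all 325 miRNAs tested.

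Between parenchyma and fat pad, 3 members were higher in parenchyma and 4 were lower. Over all miRNAs tested, 48% were called higher and 27.1% lower, and the median change was -0.65 for the members tested and 0.41 for all. Of the members called higher, miR-2284f and miR-2285bc had means of only 1.07 and 6.41 over the 16 fat pad samples. They reached the minimum mean of 10 through the other tissues, so nothing is read from the count of calls. The p-values and ranges of these members against fat pad are given as a description only. The largest change on this scale was that of miR-2284f, whose RefSeq gene lies within SLC24A4, which encodes a sodium, calcium and potassium exchanger. It was 11.5 to 35.5 in the 12 milk replacer samples of parenchyma. In fat pad 8 of the 12 were listed at 0 and the others were at 3.49 to 5.21. The groups did not overlap, and the change was 3.79 ± 0.65 (SE, adjusted p = 3.74e-06). Of the 16 fat pad libraries, controls included, 14 had a floor under 11.5, and 10 of those 14 listed miR-2284f at 0. With every 0 replaced by the value of 5 reads, the most that it can stand for, the change was 2.10, and with a pseudocount of 10 it was 1.57.

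The member miR-2285t was likewise higher in parenchyma. Its gene lies within FCGR2B, which encodes the inhibitory receptor for the Fc part of immunoglobulin G on B cells and myeloid cells. The milk replacer samples held 26.3 to 365 in parenchyma with a median of 116 and 7.01 to 37.5 in fat pad with a median of 17.2. Only the lowest parenchyma sample fell within the fat pad range, and the change was 2.66 ± 0.36 (adjusted p = 6.58e-08). The sum of the 7 immune cell miRNAs, none of which was at 0 throughout a group, moved in the same direction, at 6705 to 15777 in these parenchyma samples, 3508 to 5094 in fat pad and 12496 to 42087 in liver, and its part in the levels of miR-2285t was not tested. The third, miR-2285bc, has its gene within ORC1, which encodes a subunit of the origin recognition complex. It was 12.1 to 23.1 in parenchyma and 0 to 17.9 in fat pad, with a change of 1.64 ± 0.62 (adjusted p = 0.0182), or 0.91 with each 0 set to the value of 5 reads. It passed the threshold neither without replicate 3 (adjusted p = 0.0536) nor without replicate 10 (adjusted p = 0.0534).

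The 4 members that were lower in parenchyma than in fat pad included the most abundant. For miR-2284x the change was -0.91 ± 0.17 (adjusted p = 2.10e-05). The member miR-2285av was at 21.6 to 57.2 in parenchyma and 35.04 to 103 in fat pad, with a change of -0.79 ± 0.18 (adjusted p = 0.000195). The member miR-2284y-3 was at 49.3 to 114 in parenchyma and 90.6 to 184 in fat pad, with a change of -0.63 ± 0.17 (adjusted p = 0.00162). Finally miR-2284w, whose gene lies within DOCK11, a gene for an exchange factor of the GTPase Cdc42, was at 17.8 to 63.9 in parenchyma and 55.8 to 93.2 in fat pad. Its change was -1.06 ± 0.43 (adjusted p = 0.0236), and without replicate 10 the adjusted p was 0.0609. Ranges of these 4 members met or overlapped between the tissues, and all 4 medians were higher in fat pad. With each library rescaled to the same sum, miR-2284w (-0.61, adjusted p = 0.0667) and miR-2284y-3 (-0.20, adjusted p = 0.264) no longer passed, and miR-2284ab (-0.99, adjusted p = 0.0489) did, so that 3 members were higher and 3 lower, against 58.8% and 20% of all miRNAs tested.

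Between liver and parenchyma, 4 members were higher in liver and 0 were lower, with 29.8% of all miRNAs tested called higher and 48.6% called lower. The counts at an unadjusted p under 0.05 were 5 of the 10 members and 260 of the 325 miRNAs. The largest change was that of miR-2285k-1, at 9.67 to 41.9 in the milk replacer samples of parenchyma and 32.6 to 124 in 11 of the 12 liver samples, with 1 listed at 0. It was 1.33 ± 0.46 (adjusted p = 0.00864). Smaller changes were seen for miR-2285av (0.70 ± 0.18, adjusted p = 0.000639), miR-2284y-3 (0.48 ± 0.17, adjusted p = 0.0119) and miR-2284x (0.43 ± 0.17, adjusted p = 0.0232). The last missed the threshold without replicate 9 (adjusted p = 0.0570) or replicate 11 (adjusted p = 0.0995), and miR-2284y-3 without replicate 11 (adjusted p = 0.0511).

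These small differences depended on the scale. With each library rescaled to the same sum, the median over all miRNAs tested moved from -0.52 to -1.05 between liver and parenchyma, from 0.41 to 0.80 between parenchyma and fat pad and from -0.25 to -0.57 between liver and fat pad. The liver against parenchyma changes of miR-2285av, miR-2284y-3 and miR-2284x turned to -0.065, -0.28 and -0.35, and the members called were 1 higher and 2 lower in liver, against 19.4% and 63.1% of all miRNAs tested. That of miR-2285k-1 fell to 0.67 (adjusted p = 0.0449). Between liver and fat pad 3 members were then higher and 6 lower, against 31.4% and 52.3%. The parenchyma against fat pad changes of miR-2284f, miR-2284x and miR-2285av were 2.78, -0.47 and -0.35 after rescaling, and the liver against fat pad changes of miR-2284f, miR-2284k and miR-2284x were 1.43, -1.11 and -0.82. The liver against parenchyma changes of miR-2285av, miR-2284y-3 and miR-2284x lay above the median of all miRNAs on both scales. They did so by 1.22, 1.01 and 0.96 as the authors scaled the values and by 0.98, 0.77 and 0.70 after rescaling.

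Between liver and fat pad, 3 members were higher in liver and 3 lower, against 34.5% and 45.8% of all miRNAs tested. Here too miR-2284f reached the minimum mean through tissues other than fat pad, so nothing is read from the count or from its p-value. The member miR-2285t was at 31.0 to 384 in the milk replacer samples of liver with a median of 143, above the fat pad in all but the lowest liver sample, and the change was 2.77 ± 0.36 (adjusted p = 1.89e-08). The changes of miR-2284f and miR-2285k-1 were 2.41 ± 0.65 (adjusted p = 0.00111) and 1.64 ± 0.46 (adjusted p = 0.00148). In liver miR-2284f was listed at 0 in 4 of the 12 samples and was at 10.3 to 56.0 in the others. For miR-2285k-1 the fat pad held 7.01 to 20.4, so that 11 of the 12 liver samples lay above it.

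The members lower in liver than in fat pad were miR-2284k (-1.82 ± 0.57, adjusted p = 0.00442), miR-2284ab (-1.70 ± 0.71, adjusted p = 0.0276) and miR-2284x (-0.47 ± 0.17, adjusted p = 0.0138). The gene of miR-2284ab lies within AFF1, which encodes a scaffold of transcription elongation complexes. In fat pad miR-2284k was at 9.47 to 22.0, and in liver 6 of 12 samples were listed at 0 and the others at 8.72 to 36.6. With each 0 set to the value of 5 reads the change of miR-2284k turned to 0.19 (adjusted p = 0.446) and that of miR-2284ab fell to -0.27 (adjusted p = 0.481), so both rest on values listed at 0. The call of miR-2284ab was also lost without replicate 5, 6, 8 or 15, with adjusted p-values of 0.0668 to 0.102. For miR-2284x, above 0 in every library, the adjusted p was 0.0599 without replicate 15.

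**Figure D4:**
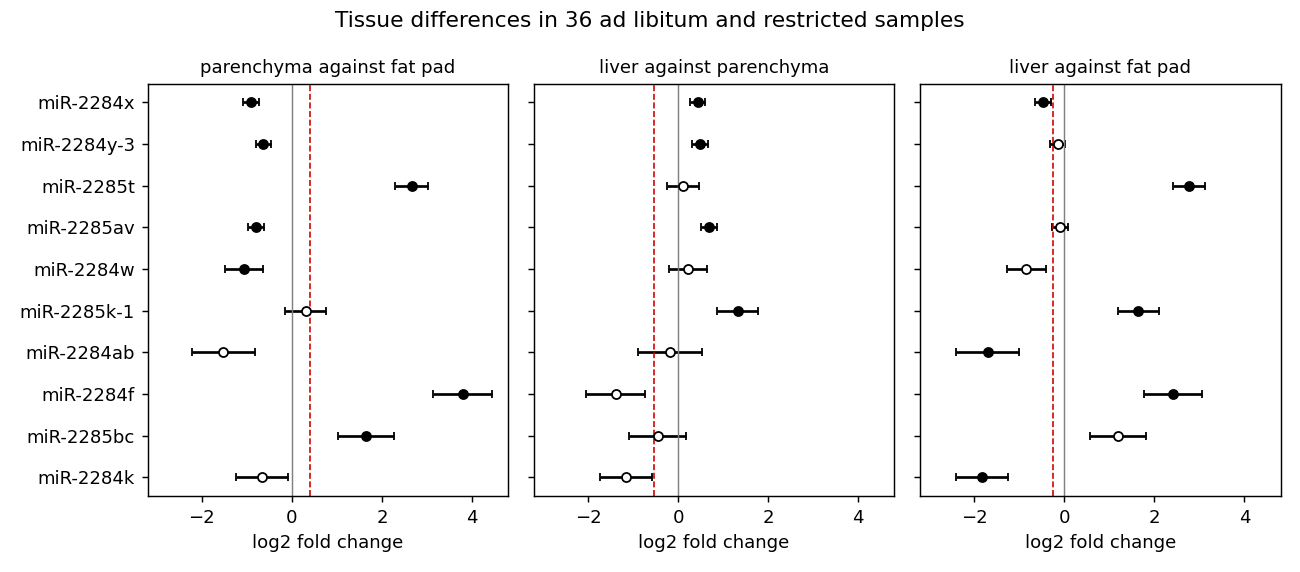
Log2 fold changes (points) with their standard errors (bars) of the 10 tested members between tissues, from limma over the 36 ad libitum and restricted samples; filled points have an adjusted p under 0.05, the grey line is 0 and the dashed red line the median of all 325 miRNAs tested. miR-2284f and miR-2285t stand to the right against fat pad in both the left and right panels, at 2.41 to 3.79. Of these, miR-2284f reached the minimum mean through tissues other than fat pad.

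In the order of levels, miR-2285t was lowest in fat pad, and its levels in parenchyma and liver did not differ beyond their spread (0.11 ± 0.36, adjusted p = 0.797). For miR-2284f the order was the same, with a liver against parenchyma change of -1.38 ± 0.65 that missed the threshold (adjusted p = 0.0516). The member miR-2285k-1 stood highest in liver, with no difference beyond the spread between parenchyma and fat pad (0.31 ± 0.46, adjusted p = 0.547). The members miR-2284x, miR-2284y-3 and miR-2285av were lowest in parenchyma as the authors scaled the values. Fat pad and liver did not differ beyond the spread for miR-2284y-3 (-0.15 ± 0.17, adjusted p = 0.446) and miR-2285av (-0.09 ± 0.18, adjusted p = 0.657).

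Members too low for the test are described by their values, chosen after these were seen. The member miR-2285ba was listed at 0 in all 16 fat pad samples, was at 0 to 3.06 in parenchyma and was above 0 in 10 of 17 liver samples, with a highest value of 36.1. All 15 parenchyma libraries and 13 of the 16 fat pad libraries had a floor under its lowest liver value above 0. The member miR-2285bb was above 0 in 10 of 16 fat pad samples, with a highest value of 28.7, in 1 of 15 parenchyma samples and in 0 of 17 liver samples. All 15 parenchyma libraries had a floor under 9.71, the median of its fat pad values above 0, but only 5 of the 17 liver libraries did. The member miR-2285q was above 0 in 14 of 15 parenchyma samples, 4 of 16 fat pad samples and 4 of 17 liver samples. Its median in parenchyma was 8.44, and 13 fat pad but only 5 liver libraries had a floor under that, of which 4 and 3 showed it.

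The second comparison asked whether the amount of milk replacer changed the family. With limma no member passed the threshold between ad libitum and restricted samples in any tissue. In parenchyma 0 of 9 members tested were called, at a background of 0% of 312 miRNAs, and at an unadjusted p under 0.05 the counts were 0 members and 10 miRNAs. The lowest p-values among the members were those of miR-2285t, miR-2284x and miR-2284y-3. For miR-2285t the ad libitum samples were at 26.3 to 365 with a median of 73.1 and the restricted samples at 83.1 to 333, and the change was -0.98 ± 0.49 (adjusted p = 0.905). For miR-2284x the medians were 1046 and 1388, with a change of -0.37 ± 0.21, and for miR-2284y-3 they were 68.5 and 85.5, with a change of -0.34 ± 0.23 (adjusted p = 0.905 for both). The groups overlapped for all 3.

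In fat pad 0 of 9 members were called, where 16.4% of 286 miRNAs were. At an unadjusted p under 0.05 there were 2 members, miR-2284x and miR-2284y-3, and 89 miRNAs. The ad libitum samples held 1856 to 2388 of miR-2284x with a median of 2016 and the restricted samples 2020 to 3174 with a median of 2494, a change of -0.34 ± 0.12 (adjusted p = 0.0730). Without replicate 5, a restricted sample, the change was -0.41 and the adjusted p was 0.0260, and with each library rescaled to the same sum they were -0.16 and 0.316. For miR-2284y-3 the change was -0.41 ± 0.17 (adjusted p = 0.105), and for miR-2285av the medians were 56.0 and 73.0, with a change of -0.46 ± 0.22 (adjusted p = 0.169).

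In liver 0 of 12 members were called, at a background of 0% of 291 miRNAs, and at an unadjusted p under 0.05 there were 0 members and 10 miRNAs. The 3 members with the lowest p-values were miR-2284w (-1.31 ± 0.89), miR-2285bc (-1.48 ± 1.22) and miR-2285k-1 (0.90 ± 0.90), each with an adjusted p of 0.983. Their standard errors were several times those of miR-2284x in fat pad, so changes of this size could not be told from the spread in liver.

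The effect of the amount was also compared between tissues. With limma, 0 of the 10 members tested passed the threshold for that difference, with a background of 0% for parenchyma against fat pad, 0% for liver against parenchyma and 0.615% for liver against fat pad. At an unadjusted p under 0.05 there were 0 members in each, and 16, 7 and 30 of the 325 miRNAs. The lowest p-value was that of miR-2285bc in liver against fat pad, with a difference of -2.51 ± 1.25 (adjusted p = 0.514).

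The third comparison set the milk replacer samples against the controls of the same tissue. The member miR-2285t was higher in the milk replacer samples than in the control samples of parenchyma. It was at 5.09, 3.47 and 28.4 in control replicates 1, 2 and 18 and at 26.3 to 365 in the 12 milk replacer samples. A single milk replacer sample lay below the highest control, and the change was 3.71 ± 0.64 (adjusted p = 0.000124). It was the only one of 11 members tested to be called, where 31.4% of 318 miRNAs were higher and 14.8% lower. The control libraries were the ones without the epithelial signal, with epithelial sums of 92.5 to 421 against 61371 to 110903, and with immune cell sums of 5059 and 5376 in 2 of them, below the 6705 to 15777 of the milk replacer samples, and 100531 in the other. Adipocyte-linked sums were 104536 to 229296 in the controls, against 21923 to 45044 in the milk replacer samples. Feeding label and tissue content thus cannot be told apart in this comparison. The part of these marker sums in the change of miR-2285t was not tested. All 3 control values lay within the fat pad range of 0 to 37.5.

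Other members differed widely among the 3 control libraries of parenchyma. For miR-2284x replicates 1, 2 and 18 held 2166, 461 and 3007, the lowest and the highest of all 15 parenchyma samples among them. Replicate 18 alone held 172 of miR-2285k-1 and 170 of miR-2284f, where the milk replacer samples reached 41.9 and 35.5. It held the highest parenchyma value of 23 of the 44 members above 0 in that tissue (52.3%), against 17.8% of 439 other miRNAs. The same library had the sum of immune cell miRNAs of 100531, and the part of that in its member values was not tested. With replicate 2 left out, 7 of 12 members tested passed the threshold, 1 higher and 6 lower with milk replacer, where 31.4% of 318 miRNAs were higher and 18.9% lower. Besides miR-2285t (3.18) these were miR-2284x (-1.05), miR-2284y-3 (-0.89), miR-2285av (-1.36) and miR-2284w (-1.39), and also miR-2284k and miR-2285b, which reached the minimum mean of 10 through the controls alone, so that nothing is read from their calls. With replicate 18 left out there were 2 of 9, both higher, against 31.4% of 315 miRNAs. These were miR-2285t (4.54) and miR-2284f, which reached that minimum through the milk replacer samples alone, so apart from miR-2285t the calls in parenchyma turned on single control libraries.

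In fat pad 2 of 8 members tested were called higher with milk replacer, miR-2285k-1 (2.81 ± 0.67, adjusted p = 0.0139) and miR-2285t (2.61 ± 0.64, adjusted p = 0.0160), where 8.83% of 283 miRNAs were higher and 4.24% lower. For miR-2285k-1 control replicates 2, 18, 19 and 21 were at 0, 0, 15.3 and 0, and the 12 milk replacer samples at 7.01 to 20.4. For miR-2285t the same controls were at 0, 10.3, 7.67 and 0, and the milk replacer samples at 7.01 to 37.5. The groups overlapped for both, and both reached the minimum mean of 10 through the milk replacer samples alone, so that nothing is read from the count of calls. The floors of these 4 control libraries were 14.0, 6.84, 5.75 and 10.8, so replicates 2 and 21, where both members were at 0, could not have shown the lowest milk replacer values. With each 0 set to the value of 5 reads the changes were 0.38 (adjusted p = 0.487) and 0.87 (adjusted p = 0.144), after rescaling to equal sums they were 1.57 and 1.69, and without replicate 21 the adjusted p of miR-2285t was 0.0611. At this depth a difference in fat pad could thus not be told apart from the floor. The ranges of the immune cell sum overlapped there, at 4309 to 4689 in the controls and 3508 to 5094 in the milk replacer samples.

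In liver 0 of 12 members were called, where 5.82% of 292 miRNAs were. At an unadjusted p under 0.05 there were 1 member and 53 miRNAs. The member miR-2284z was at 24.6, 25.6, 55.9, 35.9 and 10.3 in control replicates 1, 2, 18, 19 and 21 and was listed at 0 in 7 of the 12 milk replacer samples, with a change of -2.80 ± 1.21 (adjusted p = 0.212). For miR-2285t the 5 controls were at 51.7 to 89.6 and the milk replacer samples at 31.0 to 384, with a change of 0.89 ± 0.43 (adjusted p = 0.280). For miR-2284k the change was -1.76 ± 1.19 (adjusted p = 0.448), and with each 0 set to the value of 5 reads it was 0.25. All 5 liver controls of miR-2285t lay within the range of the milk replacer samples.

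**Figure D5:**
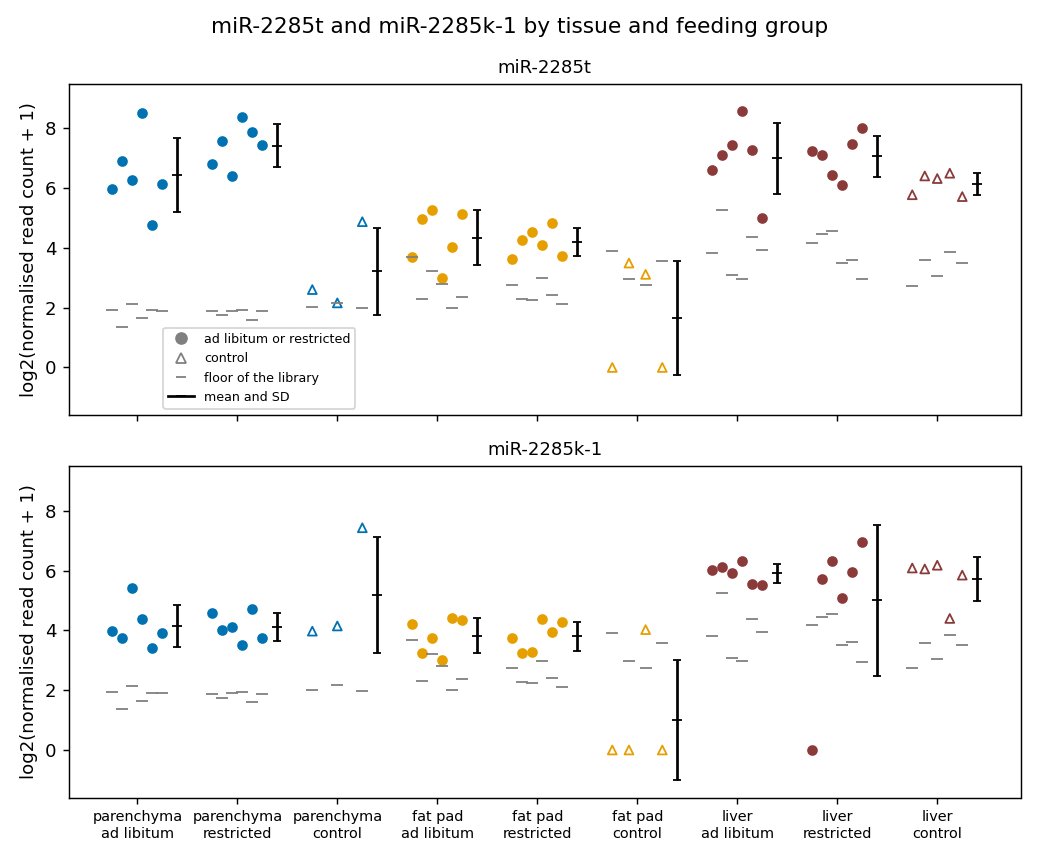
Levels of miR-2285t (top) and miR-2285k-1 (bottom), as log2(normalised read count + 1), in the 9 groups of tissue and feeding label; circles are ad libitum and restricted samples, open triangles controls, grey dashes the floor of each library and black bars the mean and SD of the group. The parenchyma controls of miR-2285t, at 3.47 to 28.4, lie at the low end or below the milk replacer samples and above or at their own floors, whereas the fat pad controls at 0 lie in libraries with floors of 10.8 and 14.0.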

How the data were processed

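Small RNA libraries were made by the authors with a NEBNext kit from tissue kept in RNAlater. Tools listed in the submitters' notes are bcl2fastq, FastQC, Trim Galore and DESeq2, with no version. The paper names a miRBase release and a cattle assembly for its own run of miRNA programs and does not tie them to the deposited table, whose aligner, build and release the sources used here do not give. Deposited values are normalised counts, for which the authors divided the reads of each library by a size factor. On checking, every value of a library was a whole multiple of 1 step (tolerance 0.01), and the lowest value above 0 was 6 steps. Steps were read as reads, and no count model was run. Columns with the authors' own comparison (fold changes and p-values) were not used.

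Gene copies were reduced to the row with the highest mean, which dropped 23 rows. Tests used limma 3.58.1 (R 4.3.3) on log2(value + 1), with a variance trend, keeping miRNAs whose mean reached 10 in the samples fitted, at an adjusted p of 0.05 (Benjamini-Hochberg). Tissues were compared over the 36 ad libitum and restricted samples, feeding labels within 1 tissue. The code was tested on simulated data. The smallest chi-square per degree of freedom among 109 pairs of libraries of 1 group was 63.3, so no library was a copy of another. Named members are the 10 with the highest mean, those past the threshold and, in comparisons with no call, the 3 lowest in p. Others named are stated as chosen after their values were seen. The comparison list holds names numbered 2281 to 2489 and 2881 to 2904 outside the family. Members and lists, the marker lists included, were chosen with earlier results of these data known. Alternatives were another pseudocount, minimum mean and scaling, floors, other values for zeros, all 48 samples, a replicate block and leaving out each replicate number.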

Additional observations from a re-analysis of the deposited data

Results flagged for a closer look

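Among 87 sets of values of 1 group (the 10 members with the highest mean and the number of members above 0), 7 held a sample far from the others of its group. Chance flags about 1 set in 20 for normally distributed values, a rate that need not hold for sets with many values listed at 0. A sample above 0 is flagged in any case where all others of its group are at 0.

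In parenchyma, ad libitum replicate 9 held 365 of miR-2285t, where the other 5 samples were at 26.3 to 120.3, and ad libitum replicate 7 held 41.9 of miR-2285k-1, where the others were at 9.67 to 19.97. In liver, restricted replicate 16 held 160 of miR-2284w against 37.4 to 70.9 in the others, and control replicate 19 held 20.2 of miR-2285k-1 against 56.8 to 71.7. In fat pad, control replicate 19 held 80.5 of miR-2284w against 57.8 to 60.5 and 15.3 of miR-2285k-1 where the other 3 controls were listed at 0. Restricted replicate 13 of fat pad held 4.36 of miR-2284f, the value of 6 reads, where the other 5 were listed at 0.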

How the results depend on the processing

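The numbers in the sample titles recur across tissues with the same treatment label. Of 36 pairs with the same number 17 had correlated deviations with r over 0.1 (from -0.12 to 0.42). The median was 0.091, against -0.032 for other numbers, and 15 of 36 samples correlated best with their own number. Not every pair passed 0.1, which does not exclude pairing, and no label ties a number to an animal. The samples were therefore not treated as paired in the main fit, although the numbers may hint at a shared source. The p-values of the main tissue comparisons take no account of such pairing. With the replicate block, the members called of the 10 tested were 8 between parenchyma and fat pad, 5 between liver and parenchyma and 6 between liver and fat pad. Without the block, 48% of all miRNAs were higher and 27.1% lower in the first, 29.8% and 48.6% in the second and 34.5% and 45.8% in the third. The shares with the block are not given here, so nothing about the family is read from these counts. No paired analysis was possible for the feeding labels because their groups share no numbers.

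The counts of this paragraph are mostly given without the share of all miRNAs called under the same setting, so nothing about the family is read from them. In the main fit 48% of all miRNAs tested were higher and 27.1% lower in parenchyma than in fat pad. Between liver and parenchyma these shares were 29.8% and 48.6%. With a minimum mean of 2, 14 of 23 members were called between parenchyma and fat pad (8 higher, 6 lower), 10 between liver and parenchyma (5 higher, 5 lower) and 4 between milk replacer and control in parenchyma (3 higher, 1 lower). Between liver and parenchyma 7 were called with values under the common floor set to 0, 7 with values under the highest floor of the libraries compared set to 0, and 8 with each 0 set to the value of 5 reads, all of them higher in liver. With libraries rescaled to equal sums there were 1 higher and 2 lower. Between milk replacer and control in fat pad the same 3 treatments of low values left 0. The latter 2 treatments were chosen after seeing the data. Leaving out 1 replicate number at a time gave 0 to 1 members called for the amount of milk replacer in fat pad, 1 (most numbers) to 7 (without replicate 2) for milk replacer against control in parenchyma and 1 to 2 in fat pad, 1 of these without replicate 21.

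Members detected in parenchyma, fat pad and liver numbered 3, 5 and 6 at the common floor, 8, 5 and 4 in every sample and 44, 33 and 30 in at least 1 sample. Of 785 alternative values for single members, 753 kept direction and call, 25 lost the call, 1 gained it and 6 changed sign. The sign changes were those of miR-2285av (-0.065), miR-2284y-3 (-0.28) and miR-2284x (-0.35) between liver and parenchyma with equal sums, of miR-2284k with each 0 set to 5 reads (0.19 for liver against fat pad and 0.25 for milk replacer against control in liver), and of miR-2285k-1 in liver for ad libitum against restricted without replicate 4 (-0.097, against up to 1.30 with another number left out). Of the 20 called single-member results, 9 kept their call in every alternative run. For 8 alternatives no value could be had, since all values of the groups compared fell under the floor. The cause of these changes was not tested. At these depths 63.0% of member values were listed at 0, each of which may stand for up to 5 reads.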
